A study of Mus musculus with 12 samples.

Results

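The 10 genes described here encode α-tubulins (Tuba1a, Tuba1b, Tuba1c, Tuba4a and Tuba8) and β-tubulins (Tubb2a, Tubb2b, Tubb3, Tubb5 and Tubb6), out of 55487 genes in the count table of C2C12 myotubes. They were chosen by symbol from the 16 α- and β-tubulin genes in the table, with earlier results of the same contrast known. The differences between the groups in these 10 genes are therefore a description and carry no test of their own. C2C12 cells are mouse myoblasts, an established line, and fuse into myotubes in low serum. Differentiation took 5 days in 2% horse serum, after which the myotubes were held for 24 h in medium with 4% STEM or with 4% horse serum. STEM is the secretome, free of cells, of partially differentiated human pluripotent stem cells. It took the place of horse serum, so the addition of STEM and the loss of horse serum cannot be told apart. Each group has 6 libraries, with the numbers 1 to 6 in the horse serum group and 7 to 12 in the STEM group. The labels do not say whether the libraries came from separate cultures, so p-values measure the spread among these libraries, which may be technical, in a single cell line.

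α- and β-tubulin pair into the dimer from which microtubules are built. The genes encode nearly the same protein core, and the isotypes differ most in the acidic tail at the carboxy end, where enzymes add or remove tyrosine, glutamate and glycine. When myoblasts fuse, microtubules reorganise from a radial array into bundles along the myotube. Cells also adjust their tubulin mRNA to the amount of free tubulin: TTC5 recognises the first residues of newly made tubulin and, with SCAPER and the CCR4-NOT complex, directs the mRNA to decay.

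The coding ends carry these isotype differences, and they are shown here for the 4 genes whose share of the members' counts did not overlap between the groups (Tuba4a, Tubb2a, Tubb3 and Tubb5) and for Tubb2b, whose reads are hard to tell from those of Tubb2a. They are the last 60 coding bases before the stop codon, 5′ to 3′, read from GENCODE M21 transcripts of GRCm38, with the last codon in capitals.
Tuba4a: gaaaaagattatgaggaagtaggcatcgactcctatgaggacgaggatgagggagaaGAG
Tubb2a: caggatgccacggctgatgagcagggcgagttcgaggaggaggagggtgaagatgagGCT
Tubb2b: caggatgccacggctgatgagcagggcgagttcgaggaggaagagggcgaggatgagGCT
Tubb3: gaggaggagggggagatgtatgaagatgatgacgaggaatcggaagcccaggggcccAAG
Tubb5: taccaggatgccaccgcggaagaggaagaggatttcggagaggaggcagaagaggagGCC

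The last codon of Tuba1a, Tuba1b and Tuba1c encodes tyrosine, the residue that detyrosinating enzymes remove and tubulin tyrosine ligase restores. Tuba4a ends in a glutamate codon, so its product is made without the tyrosine. Tubb2a, Tubb2b and Tubb5 end in alanine codons and Tubb3 in a lysine codon. The 60 bases were compared position by position from the stop codon, without gaps, so a shift in register between tails raises the count. Tubb2a and Tubb2b differed at 3 positions, none of which changes a residue, so their last 20 encoded residues are identical. Tubb3 differed from Tubb5 at 34 positions and from Tubb2a at 36. Each tail is rich in acidic residues, with 12 among the last 20 encoded residues of Tuba4a and 11 in each of the 5 β-tubulins.

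The first 4 codons encode the stretch read in autoregulation. The encoded residues are the same within each family, while the codons themselves differ between some members. The codons of 1 α and 1 β gene are shown as examples, with codons 2 to 4 in capitals.
Tuba4a: atgCGCGAGTGC
Tubb3: atgAGGGAGATC

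All 5 α members encode methionine-arginine-glutamate-cysteine there and all 5 β members methionine-arginine-glutamate-isoleucine.

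The deposited counts summed to between 13285472 and 18254882 in the horse serum libraries and to between 14909485 and 24536264 in the STEM libraries. Levels are given as CPM, which relate a gene's counts to the TMM-normalised size of its library. Differences between groups are log2 fold changes of STEM over horse serum with their standard error (SE) from edgeR's quasi-likelihood fit, and a gene was called at a Benjamini-Hochberg adjusted p of 0.05 or less. Horse serum library 6 stood apart from the other libraries of its group. Its summed CPM of 23 myotube markers was 17896, against 33242 to 35786 in the other 5 horse serum libraries and 27482 to 34314 with STEM. The markers show muscle cells in every library, with mean Myog, a regulator of myotube formation, at 907 CPM in the horse serum group and 745 CPM in the STEM group. Values of the members and counts of the lists that changed without library 6 are given both ways. In bulk RNA, fewer cells of a type and less RNA per cell cannot be told apart.

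Of the 10 tubulin genes, 9 passed the filter on low counts and 6 were called. Tubb3, Tuba4a, Tubb2a, Tuba1a and Tubb6 were higher with STEM and Tubb5 was lower, while Tuba1b, Tuba1c and Tubb2b were not called. Of all 14175 genes tested, 36.4% were called, 18.9% as higher and 17.4% as lower. These percentages are printed as the background and nothing is read from the count of members, since the contrast was known when they were chosen. For 5 members the libraries of the groups did not overlap (Tuba4a, Tubb2a, Tubb3, Tubb5 and Tubb6), against 17.2% of all genes tested. The median log2 fold change of the 9 tested members was 0.29 and that of all genes tested was 0.01. Without horse serum library 6, 7 members were called, with Tubb2b added as lower, and 50.8% of the 14267 genes then tested were called.

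**Figure D1:**
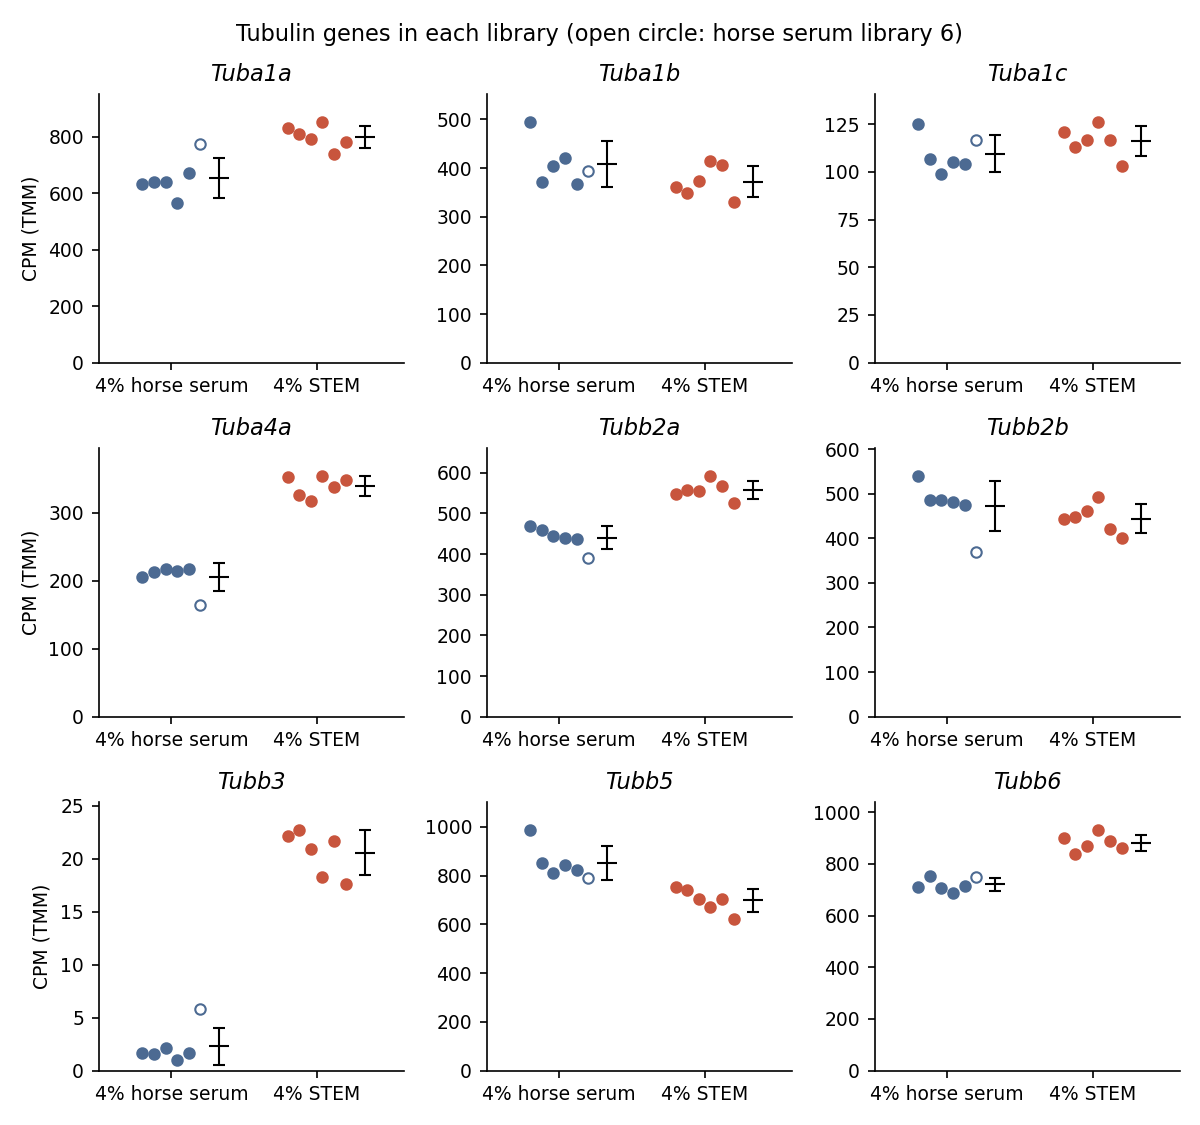
CPM (vertical axes, each from 0) of the 9 tubulin genes that passed the count filter in each of the 6 horse serum (blue) and 6 STEM (red) libraries, with the mean and SD of each group as a bar. Tubb3, Tuba4a, Tubb2a and Tubb6 lie higher and Tubb5 lower in all 6 STEM libraries, and horse serum library 6, the open circle, lies apart for Tuba4a, Tubb2b and Tubb3.

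Among the α-tubulins, Tuba4a showed the widest separation. Tuba4a (ENSMUSG00000026202, chromosome 1, 75214228 to 75219865, minus strand, GRCm38) ranged from 164 to 218 CPM with horse serum, with a median of 214, and from 318 to 354 CPM with STEM, with a median of 344. All 6 STEM libraries lay above all horse serum libraries. The log2 fold change was 0.73 (SE 0.0652), a 1.66-fold difference. The lowest value, 164 CPM, was that of horse serum library 6, and without this library the log2 fold change was 0.67 (SE 0.0389). Stk16, a kinase gene on the opposite strand, covers 37.3% of the exonic bases of Tuba4a. The libraries were stranded, but the strand setting of the counting is not given in the sources used here. Stk16 had 8134 counts over all libraries against 54273 for Tuba4a, and its own log2 fold change was 0.10 (SE 0.0847).

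Tuba1a and Tuba1b, widely expressed α-tubulins whose coding sequences are 98.3% identical, had opposite signs. Tuba1a (ENSMUSG00000072235, chromosome 15, 98949837 to 98953703, minus strand) ranged from 565 to 776 CPM with horse serum, with a median of 640, and from 740 to 851 CPM with STEM, with a median of 800. The ranges overlapped through horse serum library 6, which had 776 CPM, and the other 5 horse serum libraries lay at 565 to 670 CPM. The log2 fold change was 0.29 (SE 0.0656) with all libraries and 0.35 (SE 0.0482) without library 6. Tuba1b (ENSMUSG00000023004, chromosome 15, 98931425 to 98934565, minus strand) ranged from 368 to 494 CPM with horse serum, with a median of 398, and from 331 to 414 CPM with STEM, with a median of 367. Its groups overlapped, with 3 STEM libraries below every horse serum library, and its log2 fold change of -0.13 (SE 0.0757) was not called.

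The third gene of that cluster, Tuba1c (ENSMUSG00000043091, chromosome 15, 99029891 to 99038110, plus strand), ranged from 99.1 to 125 CPM with horse serum and from 103 to 126 CPM with STEM. Its groups overlapped, and its log2 fold change of 0.09 (SE 0.061) was not called. Tuba8 (ENSMUSG00000030137, chromosome 6, 121210696 to 121226854, plus strand), an α-tubulin described in muscle and testis, had 0 to 1 counts per horse serum library and 0 to 2 per STEM library. Both groups lay under the floor of 3 counts per library that was set here, so no fold is given.

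Among the β-tubulins, Tubb3 had the largest fold of the 9 tested members and the lowest level among them. Tubb3 (ENSMUSG00000062380, chromosome 8, 123411424 to 123422015, plus strand), the class III β-tubulin used as a marker of neurons, had 16 to 113 counts per library with horse serum and 262 to 544 with STEM. It ranged from 1.03 to 5.79 CPM with horse serum, with a median of 1.64, and from 17.6 to 22.7 CPM with STEM, with a median of 21.3. Every STEM library lay above every horse serum library, and the highest horse serum value was that of library 6, while the other 5 reached at most 2.12 CPM. The log2 fold change was 3.10 (SE 0.303), an 8.6-fold difference, and 3.69 (SE 0.129) without library 6. It lay at percentile 100 of the log2 fold changes of all genes tested, after rounding.

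Neuronal markers stayed at or near 0 in both groups. Of 10 neuronal marker genes none passed the count filter, and 8, among them Rbfox3 and Snap25, had at most 3 counts in every library. Their summed CPM was 0.666 to 1.27 with horse serum and 0.329 to 0.903 with STEM.

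Tubb2a and Tubb2b encode proteins with 2 differing residues and lie close together on chromosome 13. Tubb2a (ENSMUSG00000058672, 34074274 to 34078007, minus strand) ranged from 389 to 470 CPM with horse serum, with a median of 443, and from 526 to 591 CPM with STEM, with a median of 557. The groups did not overlap, and the log2 fold change was 0.34 (SE 0.0502), a 1.27-fold difference. Tubb2b (ENSMUSG00000045136, 34126748 to 34130466, minus strand) ranged from 369 to 539 CPM with horse serum, with a median of 483, and from 400 to 492 CPM with STEM, with a median of 446. Its log2 fold change of -0.09 (SE 0.0769) was not called with all libraries. Horse serum library 6 held the lowest value, 369 CPM, while the other 5 lay at 475 to 539, and without it the log2 fold change was -0.15 (SE 0.0508) and was called.

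Tubb5 and Tubb6, the β-tubulins with the most counts, also had opposite signs. Tubb5 (ENSMUSG00000001525, chromosome 17, 35833921 to 35838306, minus strand), the main β-tubulin of many dividing cells, ranged from 790 to 986 CPM with horse serum, with a median of 833, and from 624 to 755 CPM with STEM, with a median of 704. All STEM libraries lay below all horse serum libraries. The log2 fold change was -0.28 (SE 0.0617), which is 1.22-fold lower with STEM. Tubb6 (ENSMUSG00000001473, chromosome 18, 67390717 to 67402749, plus strand), the class V β-tubulin, ranged from 686 to 755 CPM with horse serum, with a median of 713, and from 837 to 930 CPM with STEM, with a median of 878. The groups did not overlap, and the log2 fold change was 0.29 (SE 0.0436), a 1.22-fold difference.

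**Figure D2:**
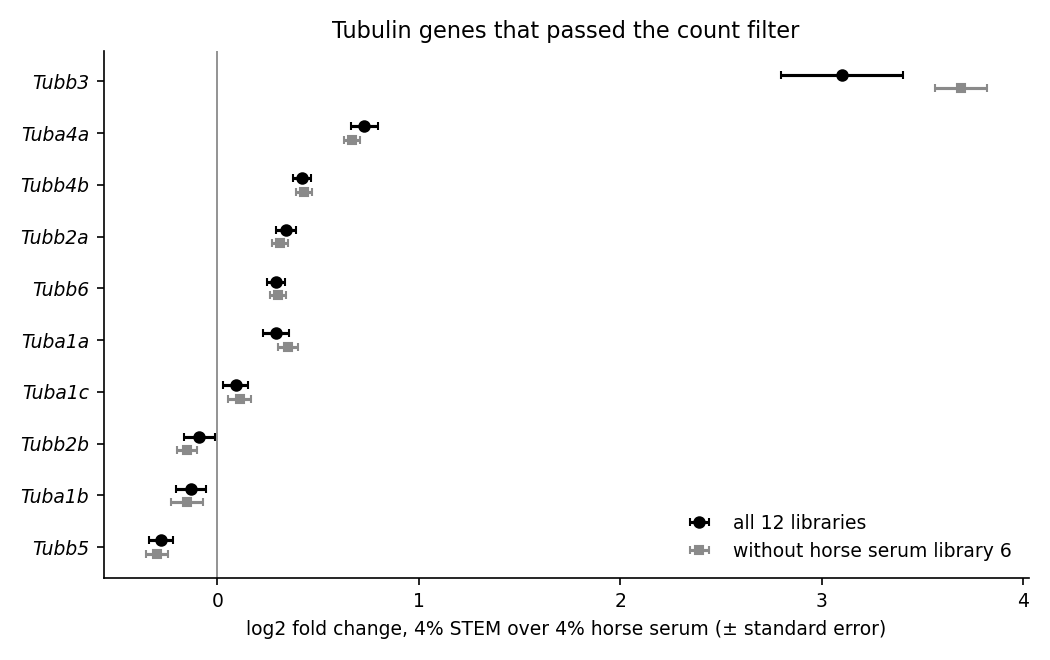
Log2 fold change of STEM over horse serum (horizontal axis) with its standard error for the 9 tested members and Tubb4b, with all 12 libraries (black) and without horse serum library 6 (grey). Tubb3 lies at 3.10, Tuba4a at 0.73, Tubb5 at -0.28, and the sign is the same with and without library 6 for all 10 genes.

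Reads of some of these genes are hard to assign. Windows of 150 bases, the read length of the study, were taken from the coding transcript chosen for each gene. Of these, 54.7% for Tuba1a, 57.9% for Tuba1b and 46.7% for Tuba1c also occurred in a transcript of another gene. The share was 27.9% for Tubb2a and 20.1% for Tubb2b, in each case through the other gene of the pair. It was 0% for Tuba4a, Tubb3, Tubb5 and Tubb6. Gm49450, on the same strand, covers 26.2% of the exonic bases of Tuba1a and 22.7% of those of Tuba1b. It had 9 counts over all libraries. Whether reads with several matches were dropped or split is not given in the sources used here. The levels of Tuba1a, Tuba1b, Tuba1c, Tubb2a and Tubb2b are therefore uncertain in size. The transcripts scanned for the called genes Tuba4a, Tubb3, Tubb5 and Tubb6 held no such windows. Exons outside the chosen transcripts were not scanned.

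Of the 6 other α- and β-tubulin genes, Tubb4b was the one with enough counts to test. Tubb4b (ENSMUSG00000036752, chromosome 2, 25222160 to 25224702, minus strand), a widely expressed β-tubulin, ranged from 212 to 246 CPM with horse serum and from 288 to 318 CPM with STEM, without overlap. Its log2 fold change was 0.42 (SE 0.046), with an adjusted p of 9.51e-06 in edgeR's test over all genes. In the transcript scanned for it, 16.8% of 150-base windows also occurred in a pseudogene. Tubb4a had 2 to 12 counts per library, and Tuba3a, Tuba3b, Tubal3 and Tubb1 had at most 1.

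Levels were compared between the members as CPM per kb of merged exonic length. With horse serum the order was Tuba1a at 363 ± 38.4 (SD, n = 6), Tubb6 at 296 ± 10.8, Tubb2a at 273 ± 17.3, Tubb5 at 256 ± 20.9, Tuba1b at 218 ± 24.7 and Tubb2b at 206 ± 24.4 CPM per kb. Well below these lay Tuba4a at 55.5 ± 5.67, Tuba1c at 47.9 ± 4.14 and Tubb3 at 1.23 ± 0.936 CPM per kb. With STEM the order of the means was the same, but the distances changed. The ranges of Tubb2a and Tubb5 overlapped with horse serum and not with STEM, where Tubb2a had 346 ± 13.3 and Tubb5 had 210 ± 14.2 CPM per kb. Likewise the ranges of Tuba4a and Tuba1c overlapped with horse serum and were apart with STEM, at 91.9 ± 4.01 and 50.9 ± 3.39 CPM per kb. Tubb6 and Tubb2a, Tubb5 and Tuba1b, and Tuba1b and Tubb2b were neighbours whose ranges overlapped in both groups.

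The members were also expressed as shares of the family, the summed counts of the 10 members in a library. On this scale, which is not corrected for length, Tubb5 had the largest share with horse serum, 22% ± 0.955 (SD, n = 6), and fell to 16.5% ± 0.988 with STEM. Tubb6 then took the first place with 20.8% ± 0.548, from 18.7% ± 0.991. Tuba4a went from 5.32% ± 0.555 to 8.04% ± 0.401, Tubb2a from 11.4% ± 0.534 to 13.2% ± 0.283 and Tubb3 from 0.0599% ± 0.0471 to 0.486% ± 0.049. For Tubb5, Tuba4a, Tubb2a and Tubb3 the shares did not overlap between the groups. The shares of Tuba1a (17% ± 2.07 and 18.9% ± 0.693), Tuba1b (10.6% ± 0.889 and 8.78% ± 0.599), Tubb2b (12.2% ± 1.18 and 10.5% ± 0.458) and Tuba1c (2.83% ± 0.188 and 2.75% ± 0.0902) overlapped. With counts divided by exonic length, the difference in share was 1.58 percentage points for Tuba4a in place of 2.72 and -3.86 for Tubb5 in place of -5.46, with the same signs. On that scale the shares of Tuba1b, 12.7% with horse serum and 10.4% with STEM, did not overlap between the groups. The ranks differed too, with Tuba1a first in both groups, at 21.2% and 23.3%.

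**Figure D3:**
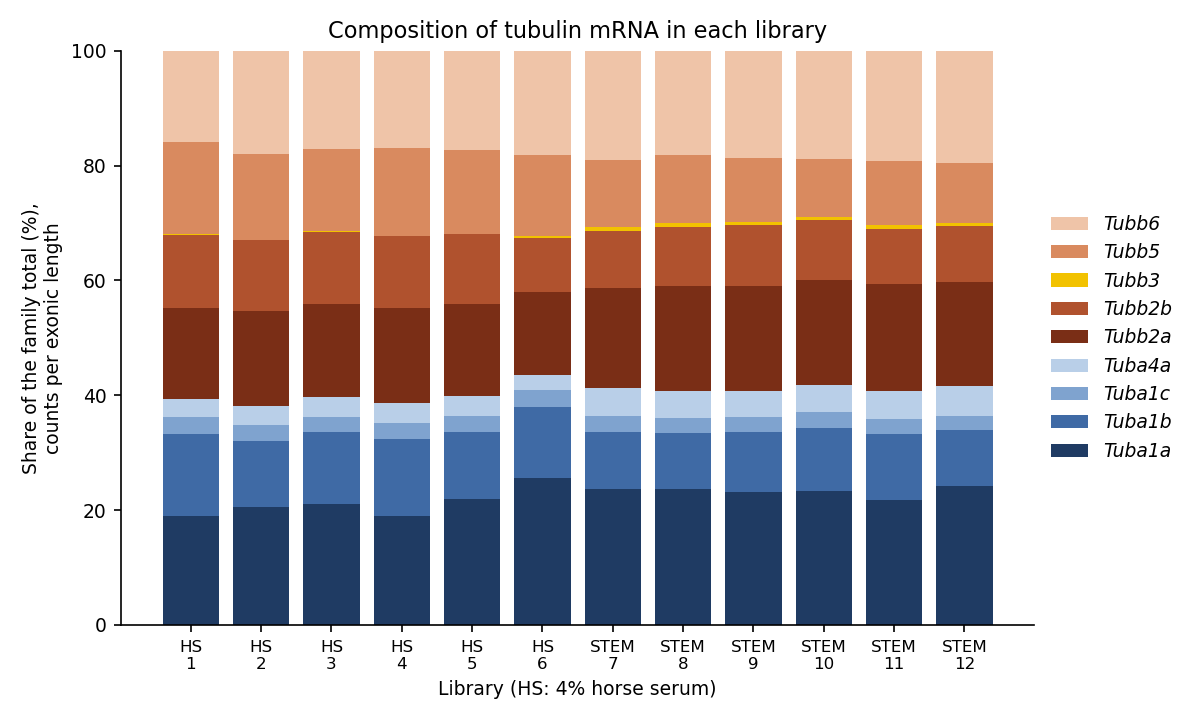
Share of each member in the family total (vertical axis, percent of counts per exonic length) in each of the 12 libraries, α genes in blue, Tubb3 in yellow and the other β genes in brown. Tubb5 takes 14.9% on average with horse serum and 11% with STEM, Tubb2a 15.9% and 18.2%, and Tubb3 0.0719% and 0.578%.

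Within the α-tubulins, measured per exonic length, Tuba4a supplied 8.17% ± 1.15 (SD, n = 6) with horse serum and 11.7% ± 0.531 with STEM. Tuba1b supplied 31.9% ± 3.22 and 25.3% ± 1.77, with ranges of 28.5% to 36.4% and 23.5% to 28.2% that did not overlap. The 3 genes that end in a tyrosine codon together made up 91.8% ± 1.15 of the α level with horse serum and 88.3% ± 0.534 with STEM. Horse serum library 6 had the highest value, 94%, and the other 5 lay at 91% to 92.3%, all above the 87.4% to 88.9% of the STEM libraries. These shares are of mRNA, and neither tubulin protein nor its tyrosination was measured here.

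Within the 5 β members, per exonic length, Tubb2a supplied 26.5% ± 0.591 with horse serum and 30.9% ± 0.558 with STEM. This total leaves out Tubb4b, with a mean of 109 CPM per kb with horse serum and 146 with STEM. Shares of all β-tubulin mRNA would be lower. Tubb5 supplied 24.8% ± 0.989 and 18.7% ± 1.07, and Tubb3 supplied 0.122% ± 0.102 and 0.981% ± 0.0951. None of these 3 genes overlapped between the groups. The ratio of Tubb6 to Tubb5 was 1.16 ± 0.105 with horse serum and 1.73 ± 0.139 with STEM, and that of Tubb2a to Tubb2b was 1.34 ± 0.0899 and 1.79 ± 0.0832, again without overlap. The ratio of Tuba1a to Tuba1b, 1.69 ± 0.284 and 2.25 ± 0.217, overlapped, with horse serum library 6 at 2.05.

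The family total was 1.1 times as high with STEM as with horse serum. The summed α members had 1377 ± 61.7 CPM (SD, n = 6) with horse serum and 1629 ± 65.5 CPM with STEM, 1.18 times as much, without overlap. The summed β members had 2486 ± 135 and 2603 ± 94.6 CPM, with overlapping ranges. Among them Tubb2a and Tubb6 were higher and Tubb5 was lower with STEM. All 10 members together had 3863 ± 155 and 4233 ± 152 CPM, with overlap. The ratio of α to β members per exonic length leaves out Tubb4b. This ratio was 0.665 ± 0.0559 with horse serum and 0.699 ± 0.0138 with STEM. Its ranges overlapped, and horse serum library 6 had the highest value, 0.774.

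Markers of other cell states moved with the groups, and their part in the tubulin differences was not tested. Their counts stand beside 36.4% of all genes tested that were called, or 50.8% without horse serum library 6. Of 16 markers of proliferating cells, 14 were called, or 13 without horse serum library 6, all lower with STEM, and their summed CPM was 1041 to 1491 in horse serum libraries 1 to 5, 1645 in library 6 and 769 to 940 with STEM. Tubb5 had 811 to 986 CPM in horse serum libraries 1 to 5, 790 CPM in library 6 and 624 to 755 CPM with STEM, and its relation to these markers was not tested. Of 23 myotube markers, 4 were called with all libraries, 2 higher and 2 lower, with a median log2 fold change of -0.16. Mymk, the fusion protein myomaker, rose from 165 ± 13.3 to 212 ± 15.1 CPM (log2 fold change 0.36, adjusted p = 0.000361 in edgeR's test), and the myosin heavy chain gene Myh4 rose too (log2 fold change 1.25, adjusted p = 0.0105 in edgeR's test). Myog fell (log2 fold change -0.29, adjusted p = 0.00403 in edgeR's test), as did the myosin heavy chain gene Myh8 (log2 fold change -1.25, adjusted p = 0.0357 in edgeR's test). Without library 6, 17 were called, 15 of them lower. Of 6 markers of undifferentiated myoblasts, 5 were called, 3 of them higher, and their summed CPM was 392 to 467 in horse serum libraries 1 to 5, 568 in library 6 and 545 to 618 with STEM. Most of this sum was Cdh15, with a mean of 349 CPM with horse serum, 459 CPM in library 6 and a mean of 481 CPM with STEM. Cdh15, Id1 and Id3 were called as higher and Myf5 and Id2 as lower, while Pax7 was not called (log2 fold change -0.04). Of 5 fibroblast markers, 4 were tested and Col1a1 was called as higher, and Thy1 had at most 3 counts in every library. Without library 6, 3 were called, all higher (Col1a1, Pdgfra and Col1a2). The summed fibroblast markers had 1685 to 1949 CPM in horse serum libraries 1 to 5, 2458 in library 6 and 1929 to 2594 with STEM. Of 6 macrophage markers, 1 was tested and was not called, while without library 6, 2 were tested and Csf1r was called as higher. Ptprc and Adgre1 had at most 3 counts in every library. Their summed CPM was 2.97 to 5.41 with horse serum and 4.65 to 6 with STEM.

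Genes that act on tubulin were examined in 5 lists, each beside the 36.4% called and the median log2 fold change of 0.01 among all genes tested. Counts without horse serum library 6 stand beside the 50.8% of all genes called without that library. The first holds γ-, δ- and ε-tubulin and the γ-tubulin ring, the template from which microtubules grow. Of its 15 tested genes, 4 were called, 1 higher and 3 lower, with a median of 0.03. Mzt1, a small subunit of the ring, fell from 89.8 ± 5.13 to 78.5 ± 2.66 CPM (log2 fold change -0.19, SE 0.0453, adjusted p = 0.00389). Tube1, ε-tubulin, fell from a mean of 6.01 to a mean of 4.13 CPM (log2 fold change -0.53, SE 0.137, adjusted p = 0.00694). Tubgcp5, another ring subunit, rose from 22.4 ± 0.706 to 25.4 ± 1.66 CPM (log2 fold change 0.18, SE 0.056, adjusted p = 0.0184). Without horse serum library 6 the count was 8 and the median -0.02, and without STEM library 7 the count was 2.

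The second list holds the chaperonin CCT, prefoldin and the cofactors that fold tubulin and join the dimer. Of 22 genes, 6 were called, 4 higher and 2 lower, with a median of -0.00, and without horse serum library 6 the count was 10. Cct6a, a CCT subunit, rose from 309 ± 10.3 to 378 ± 13.3 CPM (log2 fold change 0.29, SE 0.041, adjusted p = 7.67e-05). Cct7, a subunit of the same complex, fell from 295 ± 13.2 to 250 ± 15.8 CPM (log2 fold change -0.23, SE 0.0498, adjusted p = 0.00195). Pfdn5, a prefoldin subunit, fell from 223 ± 21.9 to 172 ± 13.8 CPM (log2 fold change -0.37, SE 0.0703, adjusted p = 0.000772). The subunits of CCT thus did not move as one.

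The third list holds the 8 genes of tubulin mRNA autoregulation, of which 4 were called, 1 higher and 3 lower. Ttc5, which recognises nascent tubulin, fell from 35 ± 1.06 to 26.6 ± 2.68 CPM, without overlap (log2 fold change -0.39, SE 0.065, adjusted p = 0.000292). Cnot11, the CCR4-NOT subunit that joins the complex to TTC5 through SCAPER, rose from 32.7 ± 2.81 to 40.4 ± 0.864 CPM, also without overlap (log2 fold change 0.31, SE 0.0572, adjusted p = 0.00076). Cnot2, another subunit, fell from 91.1 ± 2.67 to 81.7 ± 3.74 CPM (log2 fold change -0.16, SE 0.0411, adjusted p = 0.00742). Scaper had 37.2 ± 0.767 and 33.9 ± 2.27 CPM and was not called, with an adjusted p of 0.0516. Without horse serum library 6 it was called as lower, with an adjusted p of 0.029, and the count of the list was 6. The median of the list was -0.04.

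The fourth list holds enzymes that modify tubulin. Of its 21 tested genes, 8 were called, 7 higher and 1 lower, which is 38.1%, with a median of 0.08. Ttll5, a glutamylase, rose from 63.3 ± 5.9 to 89.9 ± 3.78 CPM (log2 fold change 0.50, SE 0.058, adjusted p = 1.43e-05). Ttll7, a glutamylase that acts on β-tubulin, rose from 66 ± 2.3 to 81.8 ± 6.06 CPM (log2 fold change 0.31, SE 0.0509, adjusted p = 0.000279). Ttll11, a glutamylase that extends glutamate chains, rose from 6.27 ± 1.01 to 8.42 ± 0.57 CPM (log2 fold change 0.43, SE 0.107, adjusted p = 0.00592). These 3 genes, picked for the lowest p-values of the list, did not overlap between the groups, nor did 17.2% of all genes tested. The other called genes were Svbp, Sirt2, Tpgs1 and Vash2, all higher, and Hdac6, which was lower. Without horse serum library 6, Hdac6 was not called (adjusted p = 0.0503), and 11 genes of the list were called, 9 higher and 2 lower. Ttl, the tyrosine ligase, had 32.9 ± 1.02 and 34.9 ± 1.84 CPM and was not called (adjusted p = 0.208). At an adjusted p of 0.01 or less, 4 genes of the list were called.

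The fifth list holds proteins that bind, sever or move along microtubules. Of its 36 tested genes, 15 were called, 7 higher and 8 lower, which is 41.7%, with a median of -0.01, and without horse serum library 6 the count was 19. Fignl1, a relative of the severing enzyme fidgetin, fell from 16 ± 2.25 to 10 ± 0.732 CPM (log2 fold change -0.67, SE 0.0932, adjusted p = 6.7e-05). Stmn2, a stathmin that binds tubulin dimers, fell from 39.6 ± 2.66 to 26 ± 3.88 CPM (log2 fold change -0.60, SE 0.0864, adjusted p = 9.03e-05). Ckap5, which promotes growth at the plus end, fell from 286 ± 16.8 to 242 ± 7.17 CPM (log2 fold change -0.24, SE 0.0452, adjusted p = 0.000783). The groups did not overlap for any of these 3 genes, which were likewise picked for the lowest p-values of the list. Stathmin 2 is best known from neurons, and no relation between its level and that of Tubb3 was tested. Among the higher genes, chosen after their values were seen, Map4, the main microtubule-associated protein of muscle, rose from 373 ± 26.8 to 453 ± 45.2 CPM (log2 fold change 0.28, adjusted p = 0.00533) and Map1a from 37.1 ± 5.4 to 60.8 ± 16.2 CPM (log2 fold change 0.71, adjusted p = 0.00474), both by edgeR's test over all genes and both with overlapping groups.

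**Figure D4:**
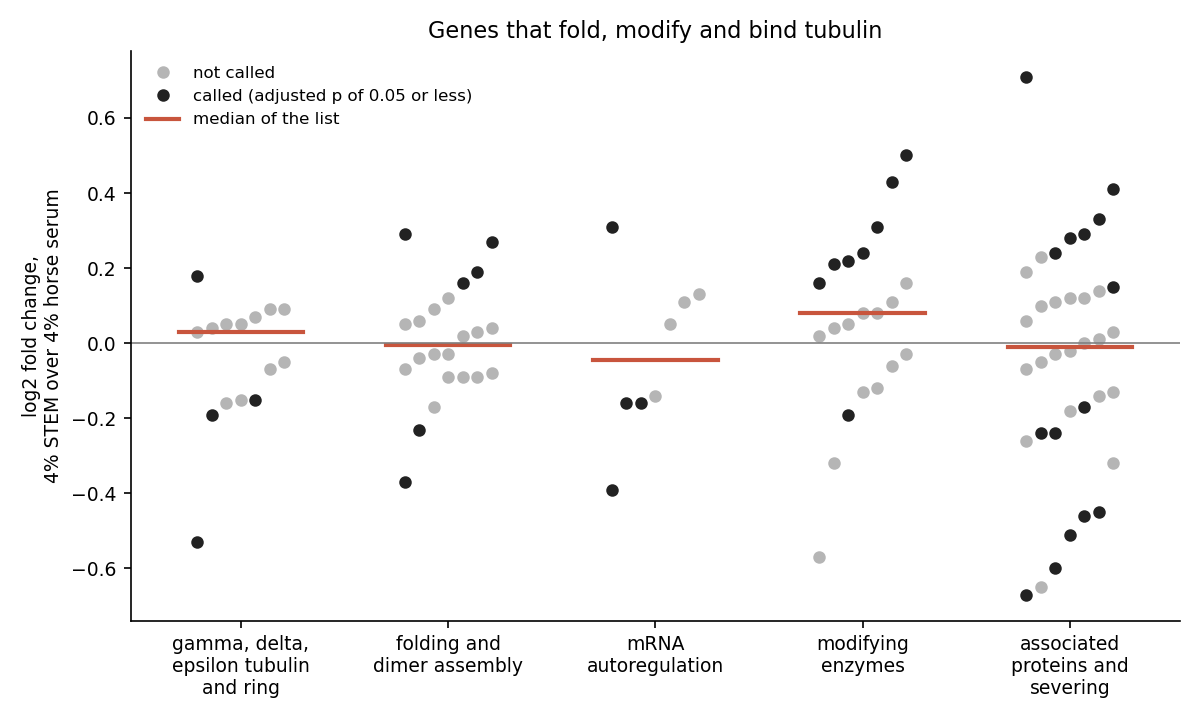
Log2 fold change of STEM over horse serum (vertical axis) for each tested gene of the 5 lists of genes that act on tubulin, with called genes in black, other genes in grey and the list's median as a red line. The medians lie between -0.04 and 0.08, and of the modifying enzymes 7 called genes lie above 0 and 1 below.

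The genes whose pattern over the 12 libraries was most like that of a member were found among 9334 genes with a mean of at least 10 CPM. The measure was the root mean square difference of log2 CPM after each gene was centred on its own mean. For members with a wide separation of the groups, this measure largely follows the group difference, and genes with a similar fold come nearest by construction. For Tubb3 the nearest were Krt14 at 0.276, Fmod at 0.42 and Col23a1 at 0.45 log2 units. Krt14 had 3.07 ± 3.05 CPM (SD, n = 6) with horse serum, 9.22 CPM in horse serum library 6 and 18.5 ± 3.08 CPM with STEM. Krt14, Fmod and Col23a1 had means below 10 CPM with horse serum and passed the minimum of 10 CPM through the STEM group. For Tuba4a the nearest were Slc26a6 at 0.0929, Fgfrl1 at 0.111 and BC034090 at 0.112, and all 3 were, like Tuba4a, below their group mean in horse serum library 6. Slc26a6, with a mean of 8.49 CPM with horse serum, likewise passed the minimum through the STEM group. For Tubb2a the nearest were Xbp1 at 0.0322, Dffa at 0.051 and Tex264 at 0.0512, and Xbp1 had 169 ± 8 and 212 ± 7.9 CPM.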

How the data were processed

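Per the labels and the study's methods, ribosomal RNA was depleted from total RNA and stranded libraries were sequenced in paired reads. The submitters' processing notes name STAR 2.7.3a, featureCounts 1.6.3, DESeq2 1.26.0 and GRCm38. The authors deposited raw read counts per gene, without normalization, and all 12 libraries were used. Counting settings for strand and multiple matches are not given in the sources used here. Symbols, coordinates and coding sequences came from GENCODE M21 (55227 of 55487 listed genes matched). Some coding ends are not reported here.

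The members and the gene lists were chosen with earlier results of these data known. Counts were tested with edgeR 4.0.16 (TMM, filterByExpr, robust glmQLFit, glmQLFTest) in R 4.3.3, with Benjamini-Hochberg adjustment over 14175 genes. DESeq2 1.42.0 and limma-voom (limma 3.58.1) were alternatives. Named genes were the members, other tubulins with counts, in each list the 3 called genes of lowest p-value, marker genes, and the 3 genes nearest to each of the 3 members with the largest absolute log2 fold change. Exceptions are Map1a and Map4, called genes of the modifying list, Scaper, Ttl and Stk16. On simulated counts of this comparison with 14175 genes, edgeR recovered 94 of 100 genes changed 2-fold and 99 of 100 changed 4-fold. Of its calls, 2.03% were false. No other genes were changed in the simulation, and no library was made to stand apart. These rates therefore do not extend to smaller folds, such as the 1.22 of some called members, or to the real libraries.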

Additional observations from a re-analysis of the deposited data

Results flagged for a closer look

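In a group of 6 libraries, a value was flagged where its gap to the nearest other library took an unusually large part of the group's range by Dixon's criterion. Of 24 groups examined, 6 were flagged, and chance flags about 1 in 20. Horse serum library 6 accounted for 3 of them: Tuba4a had 164 CPM against 206 to 218 in the other 5 libraries, Tubb2b had 369 CPM against 475 to 539, and Tubb3 had 5.79 CPM against 1.03 to 2.12. Horse serum library 1 had 986 CPM of Tubb5 against 790 to 851, and its 10 members summed to 4163 CPM against 3752 to 3883. STEM library 12 had 2429 CPM summed over the β members against 2604 to 2702 in the other STEM libraries.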

How the results depend on the processing

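The number of members called was 6 under all scalings, filters and tools tried and 6 to 7 when each library was left out in turn, and no log2 fold change of a tested member changed sign under any alternative run. The median log2 fold change of the ring list was 0.03 with all libraries and -0.02 without horse serum library 6. Tubb2b was called, at -0.15, only without horse serum library 6. At an adjusted p of 0.01 or less, 3266 genes were called in place of 5155, 2 of the γ-tubulin ring list in place of 4, and 4 of the modifying enzymes in place of 8. Without a filter on low counts, 2 genes of the ring list were called. Leaving out each library gave 2 to 8 for the ring list, 5 to 10 for the folding list and 4459 to 7245 for all genes. The log2 fold change of Tubb3 ranged from 2.95 to 3.69 over all alternatives and that of Tuba4a from 0.67 to 0.75. With counts per exonic length, the differences in share were 1.58 points for Tuba4a, -3.86 for Tubb5 and 0.506 for Tubb3. No paired analysis was possible because the groups share no replicate number. Depth limits Tuba8, Tubb4a and the other tubulins with few counts.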
